A study of Rattus norvegicus with 4 samples.

Results

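The genes described here are the 8 that write, maintain or erase cytosine methylation in DNA: Dnmt1, Dnmt3a, Dnmt3b, Dnmt3l, Uhrf1, Tet1, Tet2 and Tet3. They were chosen by symbol, and each symbol matched 1 of the 32753 genes in the tables. RNA was measured by RNA-seq in 4 libraries of rat embryoid bodies, which are clusters of pluripotent cells on their way into the first lineages. Wild-type (WT) and Kcnh2-/- embryonic stem cells of a strain labelled DASD were differentiated to day 4, with 2 libraries per group. Both groups were held in hanging drops for 2 days with CHIR9902 (0.75 µM), PD0325901 (0.1 µM) and Y27632 (10 µM), then on laminin for 24 hours with the former pair of compounds, and then for 1 day in a medium named DM. Kcnh2 encodes the potassium channel ERG1, and the comparison asks what its loss changes at this stage. The labels give neither the part of Kcnh2 that was altered nor the number of clones, and do not say that the libraries came from separate cultures, so p-values measure only the spread between these libraries. Kcnh2 itself had 2.61 and 1.45 RPKM (reads scaled by transcript length and by library) in the WT libraries, replicate 1 first as in all pairs of values below, against 0.108 and 0.504 in the Kcnh2-/- libraries.

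Methyl groups are placed on the cytosine of CpG dinucleotides by DNA methyltransferases. Dnmt3a and Dnmt3b methylate unmodified sites de novo, and Dnmt3l, which has no catalytic activity, binds and stimulates them. Dnmt1 copies the pattern onto the new strand after replication, guided by Uhrf1, which recognises hemimethylated CpG. The Tet enzymes oxidise methylated cytosine, the first step of its removal. In rodents, naive pluripotent cells hold little DNA methylation, and de novo methyltransferases come on strongly as the epiblast prepares to form the germ layers.

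The sequence these enzymes act on can be seen in the promoters of the genes themselves. The sequences below are the 250 bases before the annotated start, read 5′ to 3′ from RefSeq on assembly GRCr8, with each CpG in capitals. They are the promoters of the members with 1 listed start and a level that differed by more than 2 times between libraries.
Dnmt3l (chr20:10628990-10629239, minus strand): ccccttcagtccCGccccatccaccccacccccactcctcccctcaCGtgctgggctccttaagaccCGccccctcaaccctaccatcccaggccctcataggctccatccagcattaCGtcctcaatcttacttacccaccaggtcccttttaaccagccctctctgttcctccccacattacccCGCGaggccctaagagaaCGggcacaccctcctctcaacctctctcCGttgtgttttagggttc
Dnmt3a (chr6:32598352-32598601, plus strand): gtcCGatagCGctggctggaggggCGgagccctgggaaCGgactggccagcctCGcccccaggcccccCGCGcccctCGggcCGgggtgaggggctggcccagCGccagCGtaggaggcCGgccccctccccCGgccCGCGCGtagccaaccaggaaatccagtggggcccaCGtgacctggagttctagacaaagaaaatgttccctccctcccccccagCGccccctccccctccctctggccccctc
Tet2 (chr2:224746187-224746436, minus strand): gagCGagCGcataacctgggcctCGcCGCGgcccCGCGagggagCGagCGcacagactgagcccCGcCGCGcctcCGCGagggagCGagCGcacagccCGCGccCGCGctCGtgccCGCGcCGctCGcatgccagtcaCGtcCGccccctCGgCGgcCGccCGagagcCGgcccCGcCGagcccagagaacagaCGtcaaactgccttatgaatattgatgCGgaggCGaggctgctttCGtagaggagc
The Dnmt3l window holds 8 CpG, the Dnmt3a window 18 and the Tet2 window 38. Over all 33469 windows of this length the median was 5 CpG, with quartiles of 2 and 15, and 98.3% of windows had fewer than Tet2. The GC box GGGCGG, searched on both strands, occurs 2 times before Dnmt3l, 1 time before Dnmt3a and 2 times before Tet2, and 30.5% of all windows hold it. It contains a CpG, so the counts of box and CpG overlap. The 3 windows thus run from near the median of rat promoters to near the top of their range in CpG, a description of sequence that says nothing about methylation, which was not measured. Of the other members, Dnmt1 had 1 entry, Tet1 and Uhrf1 3 each and Tet3 4; 7 of the 8 were matched, all but Dnmt3b.

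The writers had higher RPKM than the erasers in every library. The lowest level of any of the 5 writers was 41.2 RPKM (Dnmt3l in WT replicate 1), and the highest of any Tet gene was 27.4 RPKM (Tet1 in WT replicate 2). Dnmt3b had the highest RPKM of the 8 in every library, above 99.0% to 99.5% of protein-coding genes. Tet1 had the highest RPKM of the erasers in every library, above 62.2% to 82.4% of protein-coding genes, and the order of Tet2 and Tet3 differed with the replicate number. Tet2 lay above 45.9% to 69.1% of protein-coding genes and Tet3 above 52.6% to 60.8%. All 8 passed the filter of 1 RPKM in at least 2 libraries. None passed the threshold between the genotypes in limma's test on log2(RPKM + 1), where the adjusted p ran from 0.980 to 0.996, and 0 of 8 were at an unadjusted p under 0.05. The targeted gene Kcnh2 did not pass either, with a log2 difference of -1.20 ± 0.43 (SE, limma adjusted p = 0.980). Over all 12355 genes tested limma called 14 (0.113%), of which 4 were higher (0.0324%) and 10 lower (0.0809%) in Kcnh2-/-, and 3.38% were at an unadjusted p under 0.05.

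**Figure D1:**
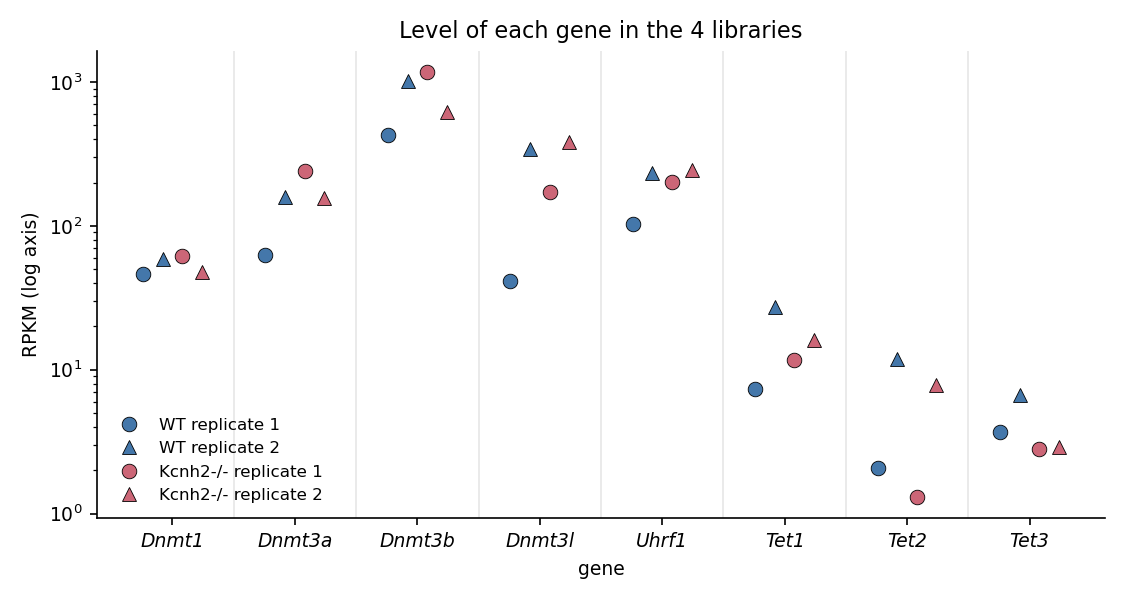
RPKM on a log axis of each of the 8 genes in the 4 libraries (blue, WT; red, Kcnh2-/-; circles, replicate 1; triangles, replicate 2). The writers lie at 41.2 RPKM or more and the Tet genes at 27.4 or less, and WT replicate 1 is the lowest library for 6 of the 8 genes.

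Dnmt3b (rn6 chromosome 3, 149131784 to 149208786), the main de novo methyltransferase of the early epiblast, was at 430 and 1016 RPKM (WT) against 1174 and 618 (Kcnh2-/-). WT replicate 1 was the lowest library and Kcnh2-/- replicate 1 the highest, so the groups overlap. The difference in log2(RPKM + 1) was 0.37 ± 0.60 (SE, limma adjusted p = 0.980). It was 1.45 within replicate number 1 and -0.72 within number 2. Without WT replicate 1 the Dnmt3b difference was -0.25, and without Kcnh2-/- replicate 1 it was -0.0967. The direction for Dnmt3b therefore depended on which library was compared with which.

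Dnmt3a (chromosome 6, 28235694 to 28340577), the second de novo enzyme, was at 62.7 and 160 RPKM (WT) against 240 and 156 (Kcnh2-/-). WT replicate 2 and Kcnh2-/- replicate 2 were nearly equal, with WT replicate 1 below and Kcnh2-/- replicate 1 above them. The log2 difference was 0.94 ± 0.54 (SE, limma adjusted p = 0.980), with 1.92 within number 1 and -0.0330 within number 2. Without WT replicate 1 the Dnmt3a difference was 0.27. Its locus is shared with 1 other listed gene, AABR07063314.1, which was at 1.42 RPKM or less in all 4 libraries.

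Dnmt3l (chromosome 20, 11344513 to 11359090), the cofactor, had the widest spread of the 8, a factor of 9.27 between its highest and lowest library. It was at 41.2 and 342 RPKM (WT) against 173 and 382 (Kcnh2-/-). In both genotypes replicate 2 was the higher library, by 3.02 in WT and 1.14 in Kcnh2-/- on the log2 scale. The log2 difference between genotypes was 1.10 ± 1.10 (SE, limma adjusted p = 0.980), with 2.05 within number 1 and 0.16 within number 2. Without WT replicate 1 it was -0.41. For Dnmt3l the step between replicate numbers in WT was thus larger than the step between genotypes.

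The maintenance pair spanned a factor of 1.33 (Dnmt1) and 2.37 (Uhrf1) between libraries. Dnmt1 (chromosome 8, 21922514 to 21968495) was the steadiest of the 8, at 46.5 and 58.7 RPKM (WT) against 62.0 and 48.1 (Kcnh2-/-). No library stood apart for Dnmt1. The log2 difference was 0.0628 ± 0.28 (SE, limma adjusted p = 0.987). Its sign turned under quantile normalization (-0.0573), without WT replicate 1 (-0.10) and without Kcnh2-/- replicate 1 (-0.12). Uhrf1 (chromosome 9, 10738221 to 10757954) was at 103 and 233 RPKM (WT) against 200 and 244 (Kcnh2-/-), a log2 difference of 0.51 ± 0.47 (SE, limma adjusted p = 0.980). It was higher in Kcnh2-/- within number 1 by 0.95 and within number 2 by 0.0642, and without WT replicate 1 the difference was -0.0764.

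Among the erasers, Tet3 (chromosome 4, 115066308 to 115157263), known as the oxidase of the zygote and of later lineages, was at 3.67 and 6.66 RPKM (WT) against 2.82 and 2.91 (Kcnh2-/-). It was the only one of the 8 whose groups did not overlap. Over all genes tested, 32% had groups that did not overlap, 16.7% higher and 15.3% lower in Kcnh2-/-, so the 1 of 8 does not exceed the background. The log2 difference of Tet3 was -0.63 ± 0.39 (SE, limma adjusted p = 0.980), with -0.29 within number 1 and -0.97 within number 2. It stayed negative with each library left out, between -0.99 (without WT replicate 1) and -0.27 (without WT replicate 2).

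Tet1 (chromosome 20, 27366212 to 27437427), with Tet2 one of the Tet enzymes of pluripotent cells, was at 7.40 and 27.4 RPKM (WT) against 11.7 and 16.2 (Kcnh2-/-). Both Kcnh2-/- libraries lie between the WT libraries. The log2 difference was -0.0649 ± 0.65 (SE, limma adjusted p = 0.996), and its sign turned without WT replicate 2 (0.81) and without Kcnh2-/- replicate 1 (0.15). Without WT replicate 1 the Tet1 difference was -0.94 and without Kcnh2-/- replicate 2 it was -0.28. Tet2 (chromosome 2, 238720834 to 238803024) was at 2.08 and 11.8 RPKM (WT) against 1.31 and 7.89 (Kcnh2-/-). It followed the replicate number more than the genotype: replicate 2 was higher by 2.06 in WT and by 1.94 in Kcnh2-/-, against a genotype difference of -0.47 ± 0.99 (SE, limma adjusted p = 0.980). Tet2 was lower in Kcnh2-/- by 0.41 within number 1 and by 0.53 within number 2, and its sign turned without WT replicate 2 (0.56) and without Kcnh2-/- replicate 1 (0.50). Its size grew without WT replicate 1 (-1.50) and without Kcnh2-/- replicate 2 (-1.44).

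**Figure D2:**
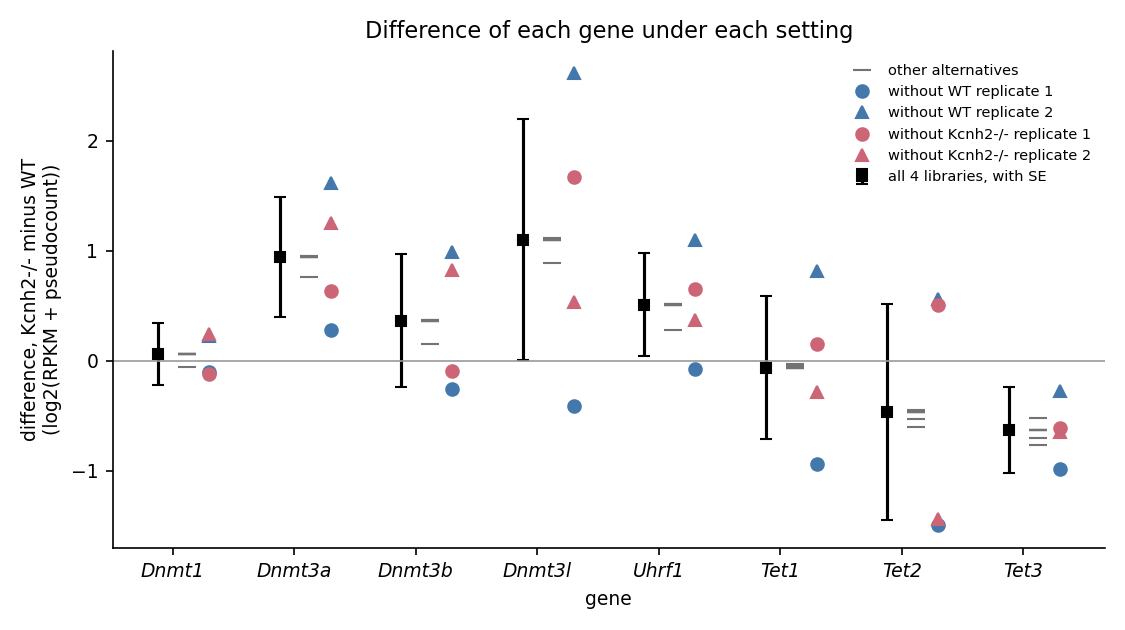
Difference between Kcnh2-/- and WT (log2(RPKM + pseudocount)) of each gene, with all 4 libraries (black squares with SE bars), under the other alternatives (grey dashes) and with each library left out (coloured symbols). Leaving out WT replicate 1 brings 4 of the 5 writers below 0, and Dnmt3a and Tet3 alone keep 1 sign in all settings shown.

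The labels do not say what libraries of equal number share. Read by number, 2 of the 8 were higher in Kcnh2-/- within both numbers (Dnmt3l and Uhrf1), 2 were lower (Tet2 and Tet3) and 4 had mixed signs. Over all genes tested 30.8% were higher and 28.1% lower within both numbers. The median log2 difference was 0.21 over the 8 genes and 0.00524 over all genes tested. In WT all 8 were higher in replicate 2 than in replicate 1, as were 53.9% of all genes tested. In Kcnh2-/- 5 of the 8 were, and Dnmt1, Dnmt3a and Dnmt3b were the other way round. WT replicate 1 was the lowest library for 6 of the 8 genes (the 5 writers and Tet1) and for 34.7% of all genes tested.

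WT replicate 1 also stood apart in markers of cell type, and the part of this in the values above was not tested. The summed RPKM of 8 cardiomyocyte markers was 713 in WT replicate 1 and between 11.8 and 84.6 in the other libraries, and all 8 were highest there, although Nkx2-5 and Myh6 were under 1 RPKM in all 4. The sum of 10 extraembryonic endoderm markers was 71.3 there and 2.58 to 14.2 in the others, with 9 of the 10 highest there and 4 under 1 RPKM in all 4. The trophoblast sum was 1920 against 343 to 841, but the keratin gene Krt8 made up 1567 of it, and of the 8 markers 4 were highest and 3 lowest there (Tfap2c, Eomes and Elf5). Of 8 fibroblast markers 6 were highest there, with a sum of 19.6 against 0.664 to 5.09, and 4 were under 1 RPKM in all 4. Col3a1 (9.41) and Postn (6.49) made up most of that sum, and Dcn and Col1a1 were highest in Kcnh2-/- replicate 1. Of 5 neural markers 3 were highest there, with a sum of 52.6 against 13.6 to 22.6. Tubb3 made up 44.6 of that sum, and 3 of the 5 were under 1 RPKM in all 4. The endothelial and blood sum was 6.93 against 0.418 to 2.69, with 3 of 5 highest there. Gata1, an X-linked erythroid factor of that list, was instead at 0.153 and 0.186 RPKM (WT) against 2.11 and 2.59 (Kcnh2-/-), which is most of the Kcnh2-/- sums. The pluripotency sum was 786 RPKM in WT replicate 1 and 1640 to 2269 in the others, with 4 of 7 markers lowest there (Pou5f1, Epcam, Nanog and Utf1) and none highest. Pou5f1, the core pluripotency factor, was the largest part of that sum in every library, at 273 and 1203 RPKM (WT) against 1043 and 1679 (Kcnh2-/-). Lin28a, Cdh1 and Sox2 in WT replicate 1 lay within the range of the other libraries. In bulk RNA, fewer cells of a type and less RNA per cell cannot be told apart. The RPKM sums of whole libraries split by replicate number, 7.95e+07 and 1.09e+08 for number 1 and 1.17e+07 and 8.93e+06 for number 2, and the labels name no batch.

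Ratios between members within a library do not depend on how the libraries are scaled. The ratio of Dnmt3a to Dnmt3b was 0.146 and 0.157 in WT and 0.205 and 0.253 in Kcnh2-/-, so both Kcnh2-/- libraries had more Dnmt3a per Dnmt3b. The share of Dnmt3b in the summed RPKM of Dnmt1, Dnmt3a and Dnmt3b was 79.8% and 82.3% in WT and 79.5% and 75.2% in Kcnh2-/-, with groups that lie close and do not overlap. These ratios were not tested. With 2 libraries against 2, an exact two-sided permutation test cannot go below p = 0.333, so that test could pass no ratio. The ratio of Dnmt3l to Dnmt3a plus Dnmt3b was 0.0836 and 0.291 in WT and 0.123 and 0.493 in Kcnh2-/-. It was higher in replicate 2 in both genotypes, and the groups overlap. The ratio of Uhrf1 to Dnmt1 was 2.21 and 3.97 in WT and 3.23 and 5.06 in Kcnh2-/-, again with overlap and with replicate 2 higher. Of 9 such ratios and shares between members, which reuse the same genes, 3 did not overlap between the genotypes. Of all single genes tested, 32% did not overlap, but that share is for levels and not for ratios. No share was computed over ratios of other genes, so whether 3 of 9 is unusual is not known.

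The balance of writers and erasers differed from library to library, also within a genotype. The summed RPKM of the 3 Tet genes was 13.1 and 45.8 in WT and 15.8 and 27.0 in Kcnh2-/-. The ratio of summed Dnmt1, Dnmt3a and Dnmt3b to summed Tet was 41.0 and 26.9 in WT and 93.2 and 30.5 in Kcnh2-/-. Kcnh2-/- replicate 1, with the highest Dnmt3b and a low Tet2, had the highest value, and the other Kcnh2-/- library lay between the WT libraries. Tet1 made up 56.3% and 59.7% of the Tet sum in WT and 73.9% and 59.9% in Kcnh2-/-, which is the third of those without overlap.

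**Figure D3:**
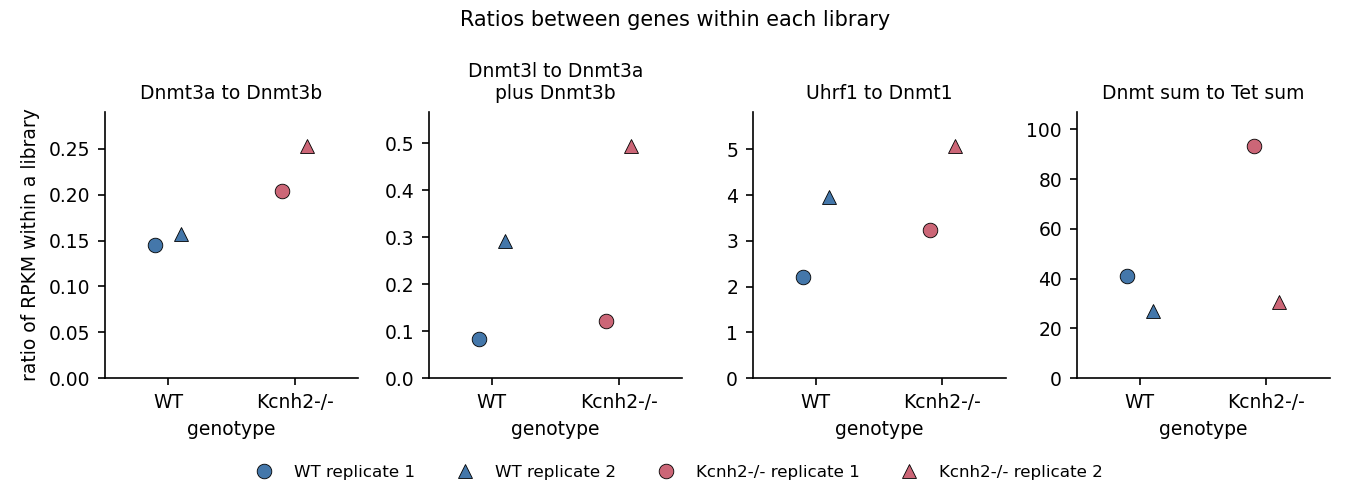
Ratios of RPKM between genes within each library (blue, WT; red, Kcnh2-/-; circles, replicate 1; triangles, replicate 2), each axis starting at 0. Of the 4 ratios drawn, Dnmt3a to Dnmt3b is the one whose groups do not overlap (0.146 and 0.157 against 0.205 and 0.253).

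Within number 2, the ratio of Kcnh2-/- to WT was low for Dnmt3b and also for its chromosome, and a ratio does not show in which of the 2 libraries the level is unusual. There, the log2 ratio of Kcnh2-/- to WT, taken without a pseudocount, was -0.72 for Dnmt3b. Its 65 protein-coding neighbours within 5 Mb had a median of -0.21, and 595 such genes on chromosome 3 a median of -0.33, against 0.0705 over 7731 autosomal genes. Within number 1 the values were 1.45 for Dnmt3b, -0.0466 for its neighbours, 0.0381 for chromosome 3 and 0.0155 over autosomal genes. The part of chromosome 3 in the Dnmt3a to Dnmt3b ratio was not tested. For the other 7 genes the medians of neighbours ran from -0.12 to 0.32 over both numbers. Tet3 lay at -1.20 within number 2 while its 35 neighbours on chromosome 4 had a median of 0.32.

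**Figure D4:**
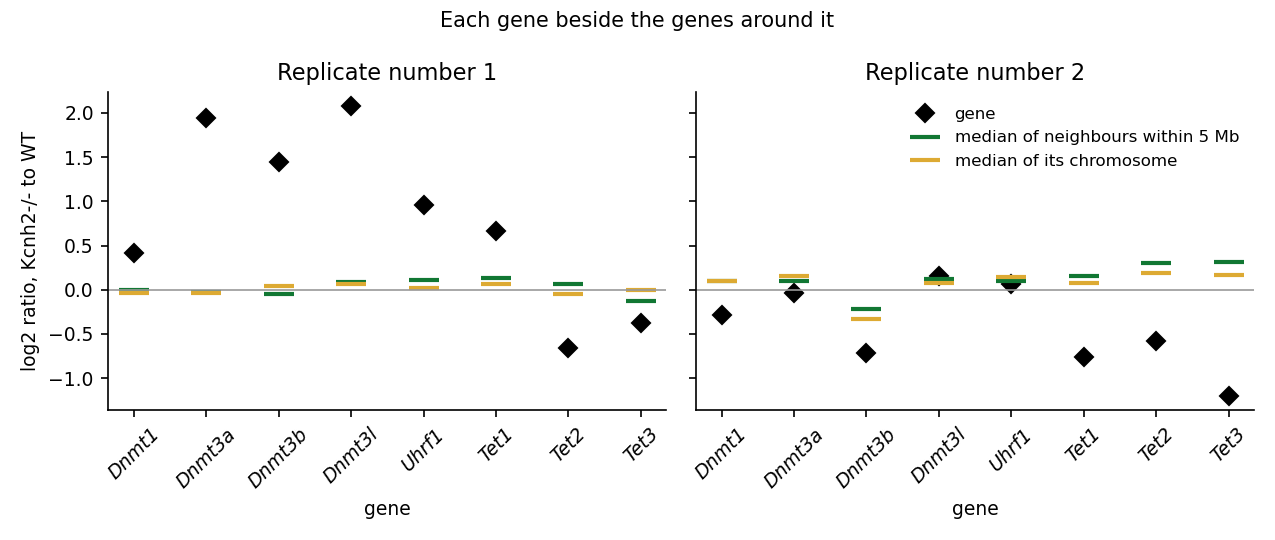
Log2 ratio of Kcnh2-/- to WT RPKM within each replicate number for each gene (black diamonds), its protein-coding neighbours within 5 Mb (green, median) and its whole chromosome (yellow, median). Within number 2 chromosome 3, which carries Dnmt3b, lies at -0.33, while within number 1 no chromosome or neighbour median is farther than 0.13 from 0.

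The genes of most similar profile over the 4 libraries were sought among protein-coding genes whose mean reached 5 RPKM, by Euclidean distance between log2(RPKM + 1) profiles less their means. With 4 libraries many profiles lie close, so these are a description. Dnmt1 was closest to Hmgb2l1 (distance 0.0328) and Nop58 (0.0457). Dnmt3b was closest to Kif1a (0.0839) and Cacnb3 (0.13), and Dnmt3a to Hist1h1t (0.12). Dnmt3l was closest to Fcrlb (0.15) and to Lefty1 (0.21), a Nodal antagonist at 27.4 and 190 RPKM (WT) against 100 and 240 (Kcnh2-/-). Uhrf1 was closest to Cluh (0.0613) and Ccne1 (0.11), the G1/S cyclin. Tet1 was closest to Tnrc6c (0.11) and the histone demethylase gene Kdm7a (0.13), Tet2 to Rusc2 (0.24) and Fabp3 (0.32), and Tet3 to Car13 (0.0590) and Dpp7 (0.0590). Among the members, Dnmt3a and Dnmt3b were the nearest pair at 0.62, and Dnmt3l and Tet3 the farthest at 2.51. The 8 genes therefore did not follow 1 profile.

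Further lists cover the machinery around these enzymes, their known germline targets and the state of the cells. At an unadjusted limma p under 0.05 stood 1 gene of the 2-oxoglutarate and ascorbate list, 4 of the germline list and 0 of the other 7. Of those 4, Hormad1 and Syce1 passed the filter through Kcnh2-/- alone. Over all genes tested, 16.7% were higher and 15.3% lower without overlap. In each of the 9 lists, leaving out 1 library at a time turned the sign of the median or moved it by more than 1.5 times, so the range is given with the library left out at each end. Partners of the writers showed 0 of 14 tested genes past the threshold, 0 higher and 1 lower without overlap, and a median log2 difference of -0.11 (-0.29 without WT replicate 1, 0.0899 without WT replicate 2). Setdb1, a histone H3K9 methyltransferase, was the 1 lower without overlap, at 29.6 and 42.6 RPKM (WT) against 29.3 and 27.9 (Kcnh2-/-). Setd2, which writes the H3K36 mark that recruits Dnmt3 enzymes to gene bodies, was at 12.2 and 31.6 against 11.7 and 13.2 RPKM. Usp7, the deubiquitinase that stabilises Dnmt1 and Uhrf1, was at 60.8 and 123 against 120 and 110, lowest in WT replicate 1 as Uhrf1 was. Trim28, the corepressor of imprint protection, was at 341 and 747 against 525 and 668. Its difference was 0.23, and -0.0296 under quantile normalization. Hells, a remodeller needed for methylation of repeats, was listed at 0 in all 4 libraries. Its locus is shared with 4 other listed genes, of which LOC100911660 was at 13.2 to 32.8 RPKM, and how reads were divided among them is not shown by the files.

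Regulators of the enzymes had 0 of 12 past the threshold, 4 higher and 0 lower without overlap (16.7% and 15.3% over all genes), and a median of 0.26. That median was -0.0910 without WT replicate 1 and 0.62 without WT replicate 2. The 4 were Cul4a, at 38.8 and 35.2 RPKM (WT) against 58.5 and 52.1 (Kcnh2-/-), the X-linked Cul4b and Ogt, and Ddb1. Ddb1, the adaptor of the Cul4 ubiquitin ligases, was at 378 and 376 against 402 and 384, and its difference of 0.0581 became -0.25 under quantile normalization. Ogt, the sugar transferase that binds Tet proteins, was at 40.0 and 42.0 against 53.4 and 97.3 RPKM, and Cul4b at 66.3 and 97.8 against 143 and 101. Dppa3, which keeps Uhrf1 from chromatin and protects from Tet oxidation, was outside the rule for named genes and was chosen after its values were seen. It was at 26.1 and 191 RPKM (WT) against 117 and 393 (Kcnh2-/-), higher in replicate 2 in both genotypes as Dnmt3l was.

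Removal and repair of oxidised bases had 0 of 16 past the threshold, 1 higher and 3 lower without overlap (16.7% and 15.3% over all genes), and a median of -0.11 (-0.19 without WT replicate 1, -0.0277 without Kcnh2-/- replicate 1). The glycosylase genes Neil1 and Mbd4 were lower without overlap, Neil1 at 4.75 and 5.08 RPKM (WT) against 3.11 and 2.89 (Kcnh2-/-), and Mbd4 at 7.90 and 6.96 against 6.04 and 4.68. Gadd45a, a stress gene linked to demethylation, was at 58.5 and 31.2 against 31.8 and 27.3. Apex1, the abasic site endonuclease, was the most abundant of this list at 214 and 163 against 228 and 161, with a difference of 0.0340 that was -0.23 under quantile normalization. Readers of methylated DNA had 0 of 8 past the threshold, 0 higher and 2 lower without overlap, and a median of -0.00465 (-0.17 without Kcnh2-/- replicate 2, 0.16 without WT replicate 2). Mbd5, which lies on chromosome 3, was at 1.95 and 2.45 RPKM (WT) against 1.03 and 0.717 (Kcnh2-/-). Zbtb4 was at 2.18 and 1.08 against 0.999 and 0.705, and it passed the filter through WT alone. Zbtb38 was at 1.87 and 3.44 against 2.85 and 6.67, and Mbd3, of the NuRD complex, at 38.3 and 56.0 against 43.9 and 55.1, with a difference of 0.0843 and of -0.0277 under quantile normalization.

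Genes that supply the methyl donor had 0 of 16 past the threshold, 5 higher and 0 lower without overlap (16.7% and 15.3% over all genes), and a median of 0.17 (0.14 without WT replicate 1, 0.37 without WT replicate 2). Mthfd2 and Mthfd1, enzymes of the folate cycle, were both higher without overlap. Mthfd2 was at 60.2 and 47.4 RPKM (WT) against 73.7 and 87.3 (Kcnh2-/-), and Mthfd1 at 67.5 and 96.1 against 114 and 107. Gldc, which feeds glycine carbon into the cycle, was at 67.9 and 121 against 117 and 170. Mat2a, which makes S-adenosylmethionine, was at 143 and 153 against 196 and 141, a difference of 0.17 that was -0.0603 under quantile normalization. Genes of 2-oxoglutarate and ascorbate, the cofactors of Tet enzymes, had 0 of 13 past the threshold, 5 higher and 2 lower without overlap (again beside 16.7% and 15.3%), and a median of 0.22 (0.0539 without Kcnh2-/- replicate 2, 0.35 without Kcnh2-/- replicate 1). The X-linked Idh3g was at 55.4 and 45.1 RPKM (WT) against 104 and 78.5 (Kcnh2-/-), and had the only unadjusted p under 0.05 of that list (0.0347, limma adjusted p = 0.980). Idh3a was at 24.8 and 33.6 against 39.2 and 47.6, and Sdha at 105 and 137 against 164 and 209.

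Germline genes that promoter methylation is known to silence had a positive difference in all 12 tested of the 13 listed, and 0 of the 12 passed the threshold. Hormad1, Syce1 and Brdt passed the filter through Kcnh2-/- alone and so had to differ. Of the other 9, 4 were higher and 0 lower without overlap (16.7% and 15.3% over all genes), 9 were higher within both replicate numbers (30.8% over all genes), and 2 were at an unadjusted limma p under 0.05. Taf7l, Mael, Dazl and Tdrd1 of the 9 reached 1 RPKM in WT in replicate 2 alone, so they too needed a Kcnh2-/- library to pass. The 4 without overlap were Ddx4, Sycp3, Taf7l and Tdrd1, so these counts are not free of the filter. The median log2 difference was 1.55 over these 9 and 1.37 over the 12. The median of the 12 was 0.73 without WT replicate 1, 0.88 without Kcnh2-/- replicate 2 and 1.85 without Kcnh2-/- replicate 1. Ddx4, the germline helicase, was at 7.75 and 27.9 RPKM (WT) against 105 and 81.9 (Kcnh2-/-) (log2 difference 2.56 ± 0.63, SE, limma adjusted p = 0.980). With the replicate block over protein-coding genes alone, limma called Ddx4 (adjusted p = 0.0412). Sycp3, of the meiotic axis, was at 1.32 and 6.43 against 12.6 and 19.8, and Hormad1, a meiotic checkpoint gene, at 0.413 and 0.526 against 3.13 and 4.49. That germ cell genes stood higher was already known when the list was made, so it is not independent evidence.

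Levels of naive pluripotency genes differed by replicate number, while formative epiblast genes did not share 1 direction between the numbers. Of 10 tested genes of naive pluripotency 0 passed the threshold, 1 was higher and 0 lower without overlap (16.7% and 15.3% over all genes), and the median was 0.56. It was -0.73 without WT replicate 1, -0.42 without Kcnh2-/- replicate 2, 1.55 without Kcnh2-/- replicate 1 and 1.87 without WT replicate 2. Nanog, a core factor of the naive state, was at 2.50 and 72.6 RPKM (WT) against 8.69 and 74.1 (Kcnh2-/-). Klf2 was at 1.83 and 13.9 against 9.27 and 31.7, Tcl1a at 0.567 and 8.91 against 2.76 and 26.6, and Fgf4, the 1 without overlap, at 5.45 and 15.3 against 19.4 and 39.8. Like 5 of the 8 members (Dnmt3l, Uhrf1, Tet1, Tet2 and Tet3), these 4 were higher in replicate 2 in both genotypes. That direction was shared by 39.5% of all genes tested. Of 6 tested formative epiblast genes 0 passed, and 1 was higher and 1 lower without overlap (16.7% and 15.3% over all genes). Their median was -0.28 (-0.45 without Kcnh2-/- replicate 2, 0.16 without WT replicate 2). Tead2, lower without overlap, was at 83.7 and 64.9 RPKM (WT) against 49.4 and 42.3 (Kcnh2-/-), and Zic2 at 7.66 and 23.0 against 4.42 and 15.1. Otx2 was listed at 0 in all 4 libraries, and whether that 0 comes from the annotation or the assignment of reads is not shown by the files.

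**Figure D5:**
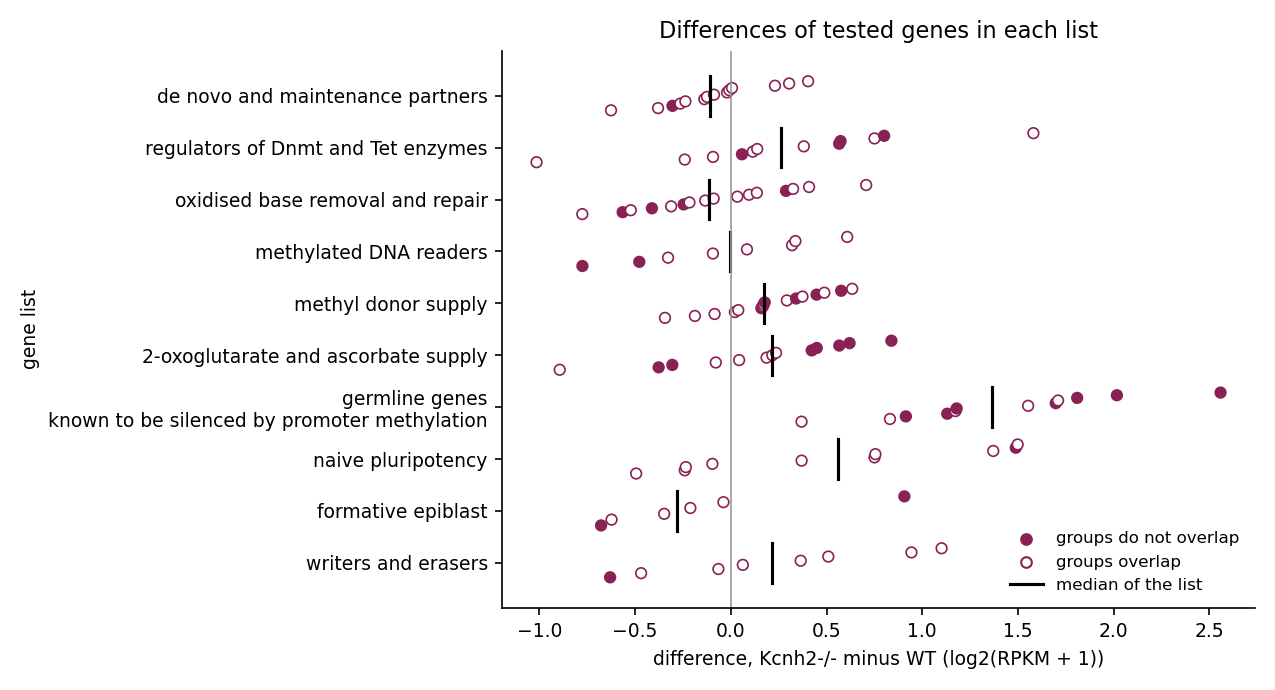
Difference between Kcnh2-/- and WT (log2(RPKM + 1)) of each tested gene in each list (filled, groups do not overlap; open, groups overlap; black bar, median of the list). The germline list has its median at 1.37 and no gene below 0. Hormad1, Syce1 and Brdt of that list passed the filter through Kcnh2-/- alone and so had to differ. The 8 writers and erasers spread from -0.63 to 1.10 with 1 filled point, Tet3.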

How the data were processed

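Per the labels' protocols, ribosomal RNA was removed from total RNA, and stranded TruSeq libraries were sequenced in pairs. Per the submitters' processing notes, TopHat2 2.0.13, Cufflinks 2.2.1 and rn6 were used; the gene annotation was not stated in the sources used here. The authors deposited 1 table of RPKM values for each library. The absolute depth is unknown: over genes under 0.08 RPKM, 30.4% and 34.9% of ratios fell within 1 bin of the commonest ratio for the library pairs of equal number, and 11.3% to 15.0% for other pairs.

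Genotypes were compared by limma 3.58.1 under R 4.3.3 (eBayes with a variance trend; two-sided tests) on log2(RPKM + 1). A gene was tested if 2 libraries or more reached 1 RPKM (12355 genes). P-values were adjusted by Benjamini-Hochberg, with calls at 0.05. This scale understates changes of low genes. The fit was tested on simulated data whose spread was independent between libraries. Nothing in those data was shared by replicate number, so the simulation does not show how the fit handles such sharing. Protein-coding genes were found by symbol in a RefSeq table (GRCr8, names only), which matched 19341 of 32753 symbols. How any reads that Dnmt3b may share with similar sequences elsewhere were divided is unknown. Python 3.11.15 made the tables and figures.

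The members, lists and tests were chosen with earlier results of these data known. The rule for named genes takes Kcnh2, the 8 members, the 2 genes of most similar profile for each, and from each of the 9 pathway lists (not the marker lists) the 3 of smallest p and the 1 of highest mean; 1 gene that it takes is not reported here. Marker lists cover pluripotent cells, fibroblasts, extraembryonic endoderm, trophoblast, cardiomyocytes, neural cells, and endothelial and blood cells. Alternatives covered the pseudocount, filter, scaling, variance trend, a replicate block, protein-coding genes alone, and each library left out.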

Additional observations from a re-analysis of the deposited data

How the results depend on the processing

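No member was called under any of the 14 alternatives, where the lowest limma adjusted p of a member was 0.297. The count of genes called, 14, was 1 with no filter on low values, 3 without the variance trend, 3 over protein-coding genes alone, 28 with the replicate block and 82 with the replicate block over protein-coding genes alone; with 1 library left out it ran from 10 to 16. The block left each member's difference as it was and called 0 members. The labels give both groups the numbers 1 and 2 without saying what they share; deviations of same-numbered libraries correlated at 0.38 over genes, a value that is the same for both numbers with 2 libraries per group. Under quantile normalization the signs of Dnmt1 (-0.0573), Apex1 (-0.23), Ddb1 (-0.25), Mat2a (-0.0603), Mbd3 (-0.0277) and Trim28 (-0.0296) were reversed, and the cause was not tested. Of 34 other named genes, which are Kcnh2 and those taken from the pathway lists, Ddx4 alone was called under any alternative. That was with the replicate block over protein-coding genes (2.56, limma adjusted p = 0.0412). Genes named only for a similar profile were not part of this count.

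With 1 library left out, where a lone library is assumed to vary like the other group, Dnmt3a (0.27 to 1.61) and Tet3 (-0.99 to -0.27) kept their sign. The others ran from -0.12 to 0.24 for Dnmt1, -0.25 to 0.98 for Dnmt3b, -0.41 to 2.61 for Dnmt3l, -0.0764 to 1.10 for Uhrf1, -0.94 to 0.81 for Tet1 and -1.50 to 0.56 for Tet2. Among other genes the sign turned for Apex1 (-0.22 to 0.28), Mat2a (-0.0642 to 0.41), Mbd3 (-0.18 to 0.35), Nanog (-1.45 to 2.95), Setd2 (-1.28 to 0.0279), Tcl1a (-0.0660 to 2.81), Trim28 (-0.33 to 0.80), Usp7 (-0.0961 to 0.90) and Zic2 (-1.41 to 0.16). Without WT replicate 2, 6 of the 8 members were higher and 1 lower without overlap, against 41.8% and 35.3% of all genes tested; without WT replicate 1, 0 were higher and 3 lower, against 33.0% and 35.2%. The filter at 5 RPKM leaves out Tet3. Absolute depth is unknown, so no counting error can be given for the low Tet2 and Tet3 values.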
